A study of Mus musculus with 9 samples.

Results

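The genes for making prostaglandins and leukotrienes were followed in mouse hearts: Ptgs1, Ptgs2, Ptgis, Ptges, Ptgds, Hpgds, Alox5, Alox5ap, Ltc4s and Alox12. They are the gene rows whose mouse Ensembl identifier carries 1 of these 10 symbols, out of 53465 gene rows. RNA was sequenced from NOD-SCID mice, an immunodeficient strain that lacks mature T and B cells but keeps macrophages, neutrophils, mast cells and platelets. All 3 groups share that strain and tissue, and each has 3 libraries: sham surgery, coronary artery ligation (called ligation below), and ligation followed by implantation of FOXO3-GE-MPCs (called the cell group below). The labels place every sample in the border zone of the infarct, the sham hearts included, and give neither the age or sex of the mice nor the time after surgery. The species and make of the implanted cells are not given either, and no library of ligated hearts with unmodified cells was analysed here, so implantation and the FOXO3 change cannot be told apart. Source fields of cell replicates 2 and 3 name FOXO4 and FOXO5, whereas title and treatment name FOXO3, which was followed.

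Prostaglandins and leukotrienes are lipid signals made from arachidonic acid after a phospholipase frees it from membranes. The cyclooxygenases Ptgs1 and Ptgs2 turn it into prostaglandin H2, from which separate synthases make prostacyclin (Ptgis), prostaglandin E2 (Ptges) and prostaglandin D2 (Ptgds and Hpgds). The lipoxygenase Alox5, helped by Alox5ap, makes leukotriene A4, which Ltc4s joins to glutathione, and Alox12 makes another arachidonate product. In the heart prostacyclin is known as a vasodilator from the vessel wall, and leukotrienes as products of white blood cells.

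Libraries held 4549268 to 7515052 gene counts, with the lowest in ligation replicate 1 and the highest in ligation replicate 3. Levels are given as CPM, counts brought to one library size with TMM factors for library composition, and 3 counts correspond to 0.375 to 0.639 CPM. Nothing in the labels says that replicates came from separate animals, so p-values measure the spread between these libraries, which may be technical. The header names of sham replicates 1 and 2 share a stem, as do those of ligation replicates 2 and 3. Mitochondrially encoded genes took 12.5 to 13.9% of counts in ligation, 14.3% in each library of the cell group and 19.1 to 19.9% in sham. The 6 genes listed as ventricular cardiomyocyte markers were abundant in all 9 libraries. They summed to 32791 to 33899 CPM in sham, 25830 to 27510 CPM in ligation and 24702 to 25569 CPM in the cell group. Of these, Myl2 had means of 8704, 4547 and 4192 CPM in that order of groups, while Mybpc3 and Ryr2 were higher in ligation than in sham. Whether the sum separates ventricle from atrium was not tested.

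The stretches just upstream of 3 members are shown first because the 2 cyclooxygenase genes showed different patterns, and Ptges encodes the synthase that is induced together with Ptgs2 in many tissues. RefSeq promoters (GRCm38.p6) were found for 8 of the 10 members, and not for Ptgis and Alox5ap. Each run holds the 250 bases before the RefSeq start, 5′ to 3′ on the gene's strand, at chr2:36230176-36230425 (plus strand) for Ptgs1, chr1:150099781-150100030 (plus strand) for Ptgs2 and chr2:30903298-30903547 (minus strand) for Ptges. The RefSeq start of Ptges lies inside the GENCODE span of the gene, which begins farther upstream. Capitals mark matches to the motifs named after the sequences.
Ptgs1: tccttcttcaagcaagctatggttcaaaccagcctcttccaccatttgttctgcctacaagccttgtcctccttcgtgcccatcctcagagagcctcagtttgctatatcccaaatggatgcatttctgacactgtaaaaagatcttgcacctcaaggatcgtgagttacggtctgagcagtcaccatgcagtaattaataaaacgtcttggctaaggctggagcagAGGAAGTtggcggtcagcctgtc
Ptgs2: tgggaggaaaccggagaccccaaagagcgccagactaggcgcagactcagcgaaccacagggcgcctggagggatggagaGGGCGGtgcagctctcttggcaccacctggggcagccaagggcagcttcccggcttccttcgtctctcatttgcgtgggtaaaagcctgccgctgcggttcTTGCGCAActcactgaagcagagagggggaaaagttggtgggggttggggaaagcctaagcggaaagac
Ptges: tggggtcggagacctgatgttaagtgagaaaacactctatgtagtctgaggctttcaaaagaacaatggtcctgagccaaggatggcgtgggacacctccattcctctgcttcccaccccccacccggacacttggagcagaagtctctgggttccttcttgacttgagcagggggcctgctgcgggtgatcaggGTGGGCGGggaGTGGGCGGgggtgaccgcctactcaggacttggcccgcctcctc
Motifs were searched on both strands and were chosen after the sequences had been read. The C/EBP motif was spelled TTGCGCA, while the motif of the EGR factors was spelled GTGGGCG. The motif of the ETS factors was spelled AGGAAGT, while the GC box was spelled GGGCGG. The core of a cyclic AMP response element was spelled CGTCA, while the E-box was spelled CACGTG. The TATA box was spelled TATAAA. Ptgs2 held TTGCGCA on both strands in overlapping positions, 69 to 62 bases before the start, and a GC box at 170 to 165. TTGCGCA occurs in 1.69% of 32851 RefSeq promoter windows of the same length. Ptges held GTGGGCG at 55 to 49 and at 44 to 38 bases before the start, each overlapping a GC box. GTGGGCG occurs in 7.02% of windows and GGGCGG in 32.7%. Ptgs1 held AGGAAGT at 23 to 17 bases before the start, which occurs in 7.69% of windows. AGGAAGT was also found in the windows of Hpgds and Ltc4s, of which 178 and 84 bases overlap GENCODE exons of the gene itself, and GGGCGG in those of Alox5 and Alox12. The cyclic AMP element core, the E-box and the TATA box, which occur in 17.8%, 6.02% and 12.4% of windows, were in none of the 8. Bases from the RefSeq start onward and farther upstream were not searched, so this absence holds for these windows only. All matches given are of letters only.

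Ligation was compared with sham to ask how the infarct changes the border zone. With ligation the RNAs of both cyclooxygenases and of the prostacyclin and prostaglandin E2 synthases rose, while those of Ptgds, the more abundant prostaglandin D2 synthase gene, and of Alox5 fell. Of the 9 members that passed the filter on low counts, 4 were higher (Ptgs1, Ptgs2, Ptgis and Ptges) and 2 were lower (Ptgds and Alox5) by edgeR's quasi-likelihood test at a Benjamini-Hochberg adjusted p under 0.05 over all 13825 genes tested. In the same comparison 38.2% of all genes passed, 20.1% higher and 18.0% lower. CPM ranges did not overlap between the groups for 7 of the 9 members and for 47.6% of all genes. The median log2 fold change was 0.47 over the 9 members and 0.01 over all genes tested. In bulk tissue fewer cells of a type and less RNA per cell cannot be told apart, here or below.

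In ligated hearts the cell implant was compared with ligation alone. Ptgs1, Ptgis, Alox5 and Hpgds were lower in the cell group and no member was higher, so 4 of 9 tested members passed, against 9.87% of all genes (4.19% higher and 5.69% lower). CPM ranges did not overlap for 7 of the 9 members, 1 higher and 6 lower, and for 27.2% of all genes. The median log2 fold change of the members was -0.31, against 0.00 over all genes tested. DESeq2 called 2 of the 9, and the count was 1 without ligation replicate 2 or without cell replicate 1, and 2 without cell replicate 2. The call that stayed in every alternative run was that of Hpgds.

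Between the cell group and sham 8 of 9 tested members differed, 4 higher (Ptgs1, Ptgs2, Ptgis and Ptges) and 4 lower (Ptgds, Hpgds, Alox5 and Alox5ap). Of all genes 40.9% passed in that comparison, 21.0% higher and 20.0% lower, and CPM ranges did not overlap for 8 of the 9 members and 49.8% of all genes. DESeq2 called 5 of the 9, and 5 were called without sham replicate 1, without sham replicate 3 or without cell replicate 3. The median log2 fold change of the members was -0.20, against -0.01 over all genes tested. The 3 comparisons share libraries, since each group enters 2 of them.

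**Figure D1:**
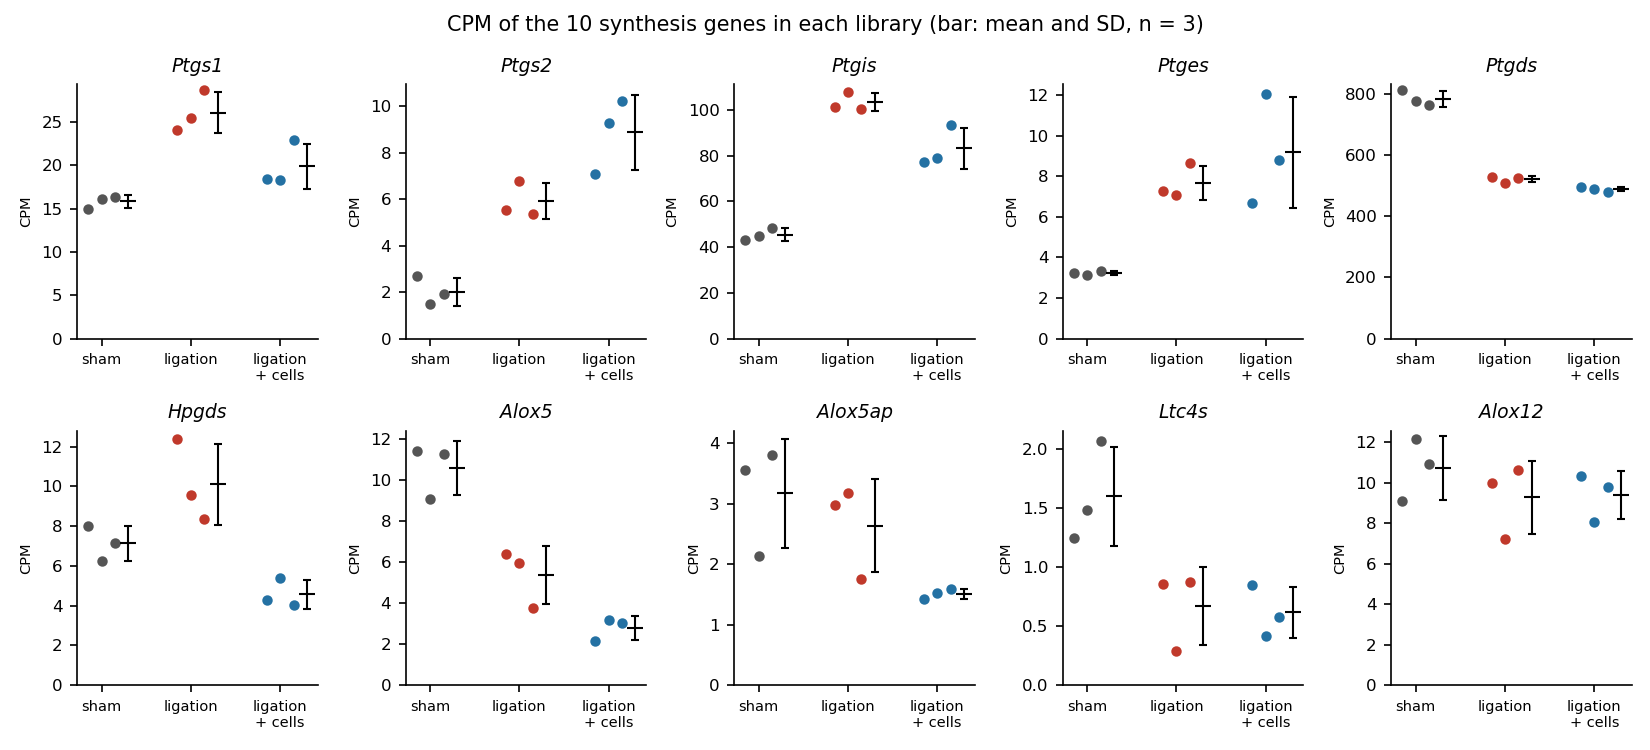
CPM of each of the 10 genes (vertical axes, each from 0) in the 3 libraries of each group, with the mean and SD beside the points. Ptgis and Ptgs1 are highest in ligation, Ptgs2 has its highest values in the cell group, and Alox5 is lowest there.

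**Figure D2:**
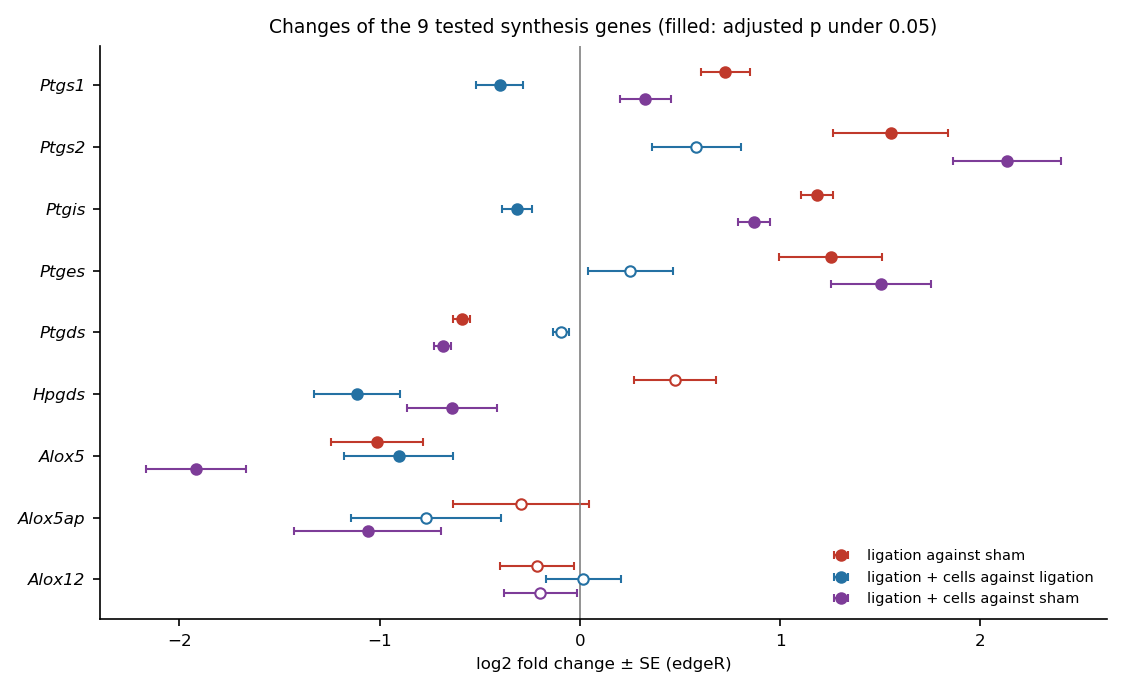
Log2 fold change with its SE (horizontal axis) for the 9 tested genes in the 3 comparisons, filled where the adjusted p is under 0.05. Ptgs1 and Ptgis lie right of 0 against sham and left of 0 for cells against ligation, while Ptgs2 and Ptges lie right of 0 throughout.

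Ptgs1 (ENSMUSG00000047250, chr2:36230426-36252272, plus strand, mm10) encodes cyclooxygenase 1, the isoform that most tissues make at all times. Its level was 14.95, 16.14 and 16.35 CPM in sham replicates 1 to 3, 24.1, 25.5 and 28.6 CPM in ligation, and 18.4, 18.3 and 22.9 CPM in the cell group. The 3 ranges did not overlap, with sham lowest and ligation highest. Ligation raised Ptgs1 by 0.73 on the log2 scale (SE 0.124, adjusted p = 8.75e-05, edgeR). The cell group was lower than ligation, at -0.40 (SE 0.118, adjusted p = 0.0342), and higher than sham, at 0.33 (SE 0.127, adjusted p = 0.0455). Those last calls were near the threshold. The adjusted p against ligation was 0.076 without ligation replicate 2, 0.196 without ligation replicate 3, 0.123 without cell replicate 1, 0.125 without cell replicate 2 and 0.169 in DESeq2. Against sham it lay between 0.0574 and 0.232 without any 1 of the sham libraries, ligation replicate 2, ligation replicate 3 or cell replicate 3, and was 0.155 in DESeq2. An antisense gene, Gm43621, overlaps 3.81% of the Ptgs1 exon bases, and since the strand setting of the counting is not stated, reads there cannot be told apart.

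Ptgs2 (ENSMUSG00000032487, chr1:150100031-150108227, plus strand) encodes cyclooxygenase 2, the isoform induced by injury and inflammation. The libraries held 15, 9 and 12 counts in sham, 26, 47 and 43 in ligation, and 50, 67 and 71 in the cell group. That is 2.67, 1.48 and 1.90 CPM in sham, 5.54, 6.80 and 5.38 CPM in ligation, and 7.09, 9.29 and 10.2 CPM in the cell group. Every ligation library was above every sham library, and every library of the cell group was above every ligation library. Ligation raised Ptgs2 by 1.55 (SE 0.288, adjusted p = 2.11e-04, edgeR), and the cell group was above sham by 2.13 (SE 0.270, adjusted p = 2.14e-06). The difference between the cell group and ligation was 0.58 (SE 0.222) and did not pass, with an adjusted p of 0.109 in edgeR and 0.0809 to 0.338 over the alternatives.

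The 2 cyclooxygenase RNAs stood in a different ratio in each group. Per exonic length, Ptgs2 made up 13.2%, 7.23% and 8.99% of Ptgs1 and Ptgs2 together in sham, 16.3%, 18.5% and 13.7% in ligation, and 24.6%, 30.1% and 27.5% in the cell group. The ranges did not overlap, and the means were 9.79% ± 3.04 (SD, n = 3) for sham, 16.2% ± 2.37 for ligation and 27.4% ± 2.75 for the cell group. An exact two-sided permutation test gave p = 0.1 for each pair of groups, the smallest that 3 against 3 libraries allow, and 0.12 after Benjamini-Hochberg adjustment over 6 tests of ratios. This ratio and the other ratios below were chosen after the values had been seen. The ratio does not depend on the scaling of the libraries.

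**Figure D3:**
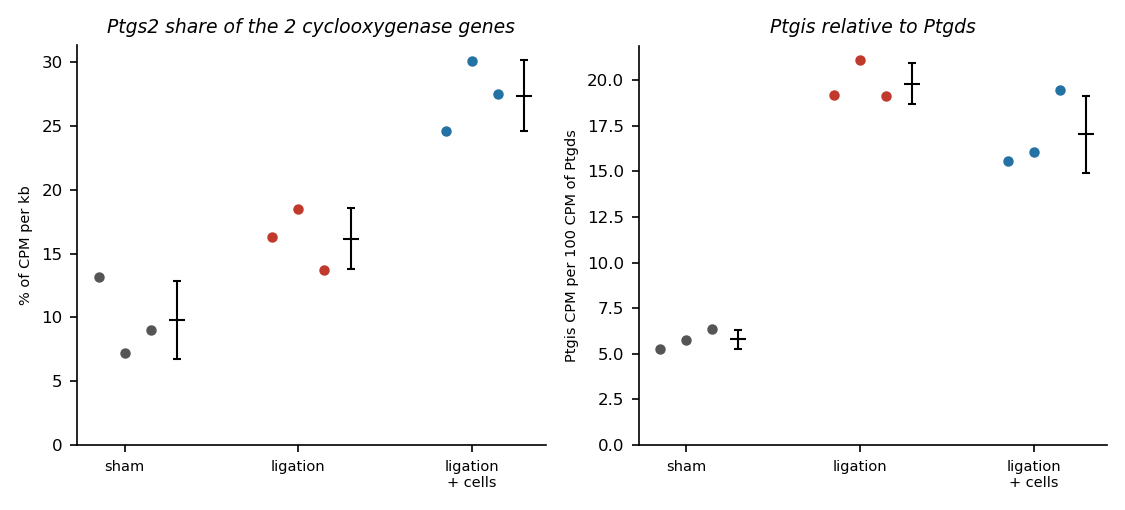
Left, Ptgs2 as a percentage of Ptgs1 plus Ptgs2 in CPM per kb of exons; right, Ptgis CPM per 100 CPM of Ptgds; points are libraries, with the mean and SD beside them. The Ptgs2 share has means of 9.79%, 16.2% and 27.4% with no overlap between groups, while the Ptgis ratio of the ligation and cell groups overlaps.

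Ptgis (ENSMUSG00000017969, chr2:167191805-167240604, minus strand) encodes prostacyclin synthase. It measured 42.9, 45.0 and 48.4 CPM in sham, 101.4, 107.8 and 100.5 CPM in ligation, and 77.0, 78.8 and 93.5 CPM in the cell group. Ligation libraries were the highest and sham libraries the lowest, with no overlap. Ligation raised Ptgis by 1.18 (SE 0.0799, adjusted p = 2.42e-10, edgeR), which is 2.27-fold. The cell group lay 0.31 below ligation (log2 fold change -0.31, SE 0.0741, adjusted p = 0.00817) and was 1.83-fold above sham, at 0.87 (SE 0.0805, adjusted p = 2.59e-08). The adjusted p against ligation was 0.053 without ligation replicate 2 and 0.0625 without cell replicate 1. The antisense gene 1110018N20Rik overlaps 6.08% of its exon bases.

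Ptges (ENSMUSG00000050737, chr2:30889471-30929863, minus strand) encodes the inducible membrane-bound prostaglandin E synthase. Its level was 3.20, 3.13 and 3.33 CPM in sham, 7.24, 7.09 and 8.63 CPM in ligation, and 6.67, 12.1 and 8.79 CPM in the cell group. Both ligated groups were above sham, and they overlapped each other, with cell replicate 2 the highest of the 9 libraries. Ligation raised Ptges by 1.25 (SE 0.258, adjusted p = 5.87e-04, edgeR), and the cell group exceeded sham by 1.51 (SE 0.249, adjusted p = 5.69e-05). Between the cell group and ligation the log2 difference was 0.25 (SE 0.213, adjusted p = 0.538), and 0.0018 without cell replicate 2.

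Ptgds (ENSMUSG00000015090, chr2:25466709-25470046, minus strand) encodes the lipocalin-type prostaglandin D synthase, a secreted protein that also carries lipids. Its level was 815, 778 and 764 CPM in sham, 529, 511 and 526 CPM in ligation, and 495, 490 and 481 CPM in the cell group. The sham libraries were the highest, and the cell group was lowest with no overlap with ligation. Ligation lowered Ptgds by a log2 fold change of -0.59 (SE 0.0416, adjusted p = 4.58e-10, edgeR), and the cell group stood at -0.68 against sham (SE 0.0416, adjusted p = 4.36e-11). The difference between the cell group and ligation was -0.09 (SE 0.0417) and did not pass, with an adjusted p of 0.179. With Ptgis up and Ptgds down, there were 5.79 ± 0.537 (SD, n = 3) CPM of Ptgis per 100 CPM of Ptgds for sham, 19.8 ± 1.13 for ligation and 17.0 ± 2.10 for the cell group. Exact permutation tests, two-sided, gave p = 0.1 for each ligated group against sham and p = 0.3 between the ligated groups, or 0.12 and 0.3 adjusted over the same 6 tests.

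Hpgds (ENSMUSG00000029919, chr6:65117293-65144908, minus strand) encodes the other prostaglandin D synthase, which is made in blood-derived cells such as macrophages and mast cells. It measured 8.01, 6.26 and 7.14 CPM in sham, 12.4, 9.55 and 8.38 CPM in ligation, and 4.26, 5.41 and 4.03 CPM in the cell group. The 3 ranges did not overlap, with ligation highest and the cell group lowest. Against sham, ligation stood at 0.47 (SE 0.206, adjusted p = 0.0757, edgeR), which did not pass. It passed with library totals in place of TMM factors, at 0.66 and an adjusted p of 0.0111. The cell group was lower than ligation, at -1.11 (SE 0.214, adjusted p = 0.00148). It was also lower than sham, at -0.64 (SE 0.226, adjusted p = 0.0289), a call lost without sham replicate 1, sham replicate 3, cell replicate 1 or cell replicate 3 (adjusted p 0.0615 to 0.101), with library totals (0.0866) and in DESeq2 (0.0963).

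The summed level of macrophage markers moved with Hpgds, but not every marker did. The 10 macrophage markers (Adgre1, Cd68, Csf1r, C1qa, Mrc1, Lyz2, Cd14, Itgam, Cx3cr1 and Cd163) summed to 612 to 668 CPM in sham, 1106 to 1142 CPM in ligation and 452 to 477 CPM in the cell group. With ligation 8 of the 10 were higher, Cd163 was lower and Mrc1 did not pass (log2 fold change 0.16, adjusted p = 0.167, edgeR). All 10 were lower in the cell group than in ligation. Hpgds stood at 11.1 ± 1.23 CPM per 1000 CPM of these markers for sham (SD, n = 3), 8.94 ± 1.69 for ligation and 9.78 ± 1.35 for the cell group. The ratio of Hpgds to the macrophage markers spanned a narrower range of means than Hpgds itself. Mast cell markers, 7 in number, summed to 16.0 to 17.3 CPM in sham, 10.6 to 12.2 CPM in ligation and 8.46 to 11.5 CPM in the cell group, most of it from Kit. Of the 4 that could be tested, Cma1 (log2 fold change -1.19, adjusted p = 0.046, edgeR) and Tpsb2 (-1.37, adjusted p = 0.016) were lower in ligation than in sham, while Kit (-0.36, adjusted p = 0.158) and Mcpt4 (0.20, adjusted p = 0.780) did not pass. The Fc receptor genes Fcer1a and Ms4a2 were at or near 0 in every group. The part of these cells in the result was not tested.

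Alox5 (ENSMUSG00000025701, chr6:116410077-116461178, minus strand) encodes arachidonate 5-lipoxygenase, the enzyme that starts leukotriene synthesis. Its level was 11.4, 9.06 and 11.3 CPM in sham, 6.39, 5.93 and 3.75 CPM in ligation, and 2.13, 3.19 and 3.03 CPM in the cell group. Values stepped down from sham to ligation to the cell group with no overlap. Ligation stood at -1.01 against sham (SE 0.230, adjusted p = 0.00147, edgeR), and the cell group at -1.92 (SE 0.250, adjusted p = 3.12e-06). The further difference between the cell group and ligation was -0.91 (SE 0.274, adjusted p = 0.0397). That call was lost in DESeq2 (adjusted p = 0.0918), in a fit of only those groups (0.0580) and without ligation replicate 1, ligation replicate 2 or any 1 library of the cell group (0.0523 to 0.157).

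The summed level of neutrophil markers moved with Alox5, but not every marker did. The 6 neutrophil markers (S100a8, S100a9, Csf3r, Cxcr2, Retnlg and Ly6g) summed to 37.9 to 45.2 CPM in sham, 14.5 to 21.0 CPM in ligation and 5.76 to 6.80 CPM in the cell group. S100a8 and S100a9 made up most of the sham sum, with means of 14.5 and 19.0 CPM, and they were the 2 of 4 tested markers that were lower with ligation. Csf3r went from a mean of 4.14 CPM in sham to 6.34 CPM in ligation (log2 fold change 0.64, adjusted p = 0.116, edgeR), and the ranges of Csf3r, Cxcr2 and Retnlg overlapped between these groups. In the cell group 3 of the 4 were lower than in ligation (S100a8, S100a9 and Csf3r), and Ly6g was at or near 0 in every group. Alox5 stood at 25.9 ± 3.5 CPM per 100 CPM of neutrophil markers for sham (SD, n = 3), 31.2 ± 11.8 for ligation and 44.8 ± 9.01 for the cell group. Against the macrophage markers it stood at 16.5 ± 2.22 CPM per 1000 CPM for sham, 4.74 ± 1.19 for ligation and 5.97 ± 1.24 for the cell group. Alox5 was lower in ligation than in sham, while 8 of the 10 macrophage markers were higher, Cd163 was lower and Mrc1 did not pass (log2 fold change 0.16, adjusted p = 0.167, edgeR). The part of either cell type in the result was not tested.

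**Figure D4:**
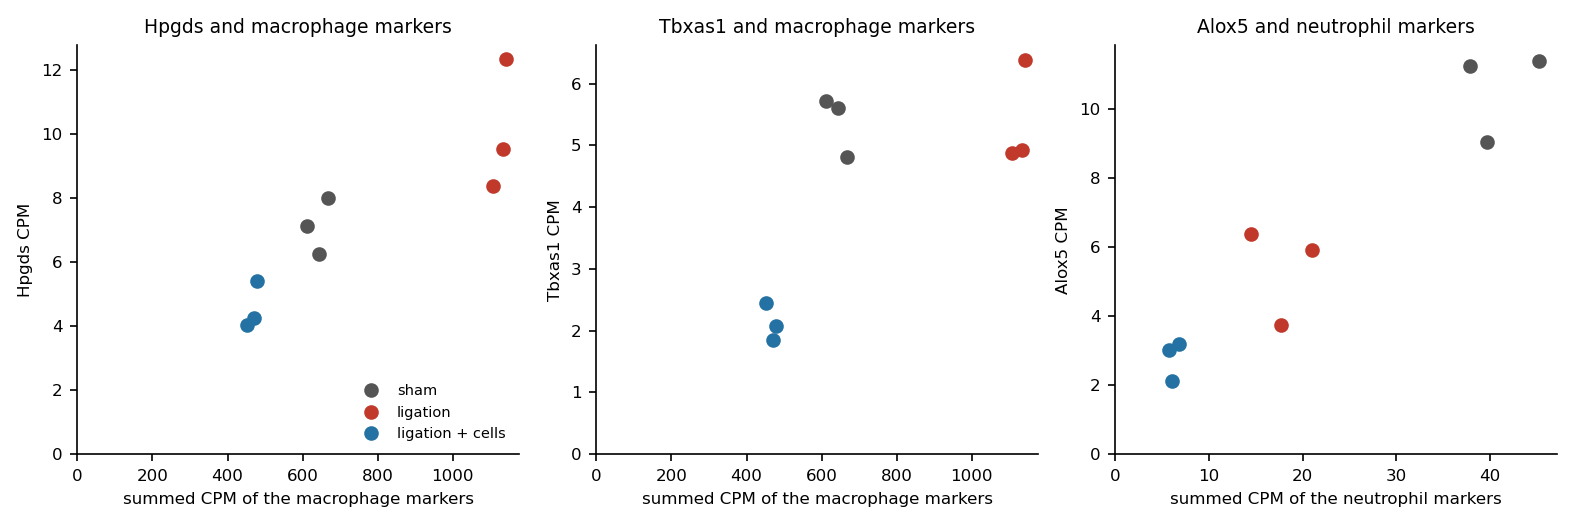
CPM of Hpgds and of the thromboxane synthase gene Tbxas1 against the summed CPM of 10 macrophage markers, and of Alox5 against the summed CPM of 6 neutrophil markers; each point is 1 library. Hpgds is lowest where the macrophage sum is lowest, 452 to 477 CPM, while Tbxas1 overlaps between sham and ligation.

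Alox5ap (ENSMUSG00000060063, chr5:149264767-149288153, plus strand) encodes the membrane protein that presents arachidonic acid to Alox5. The libraries held 20, 13 and 24 counts in sham, 14, 22 and 14 in ligation, and 10, 11 and 11 in the cell group, which is 3.56, 2.14 and 3.81 CPM, 2.98, 3.18 and 1.75 CPM, and 1.42, 1.53 and 1.58 CPM. Sham and ligation overlapped, and the cell group was below both. Only the cell group against sham passed, at -1.06 (SE 0.366, adjusted p = 0.0253, edgeR). Without sham replicate 1, sham replicate 3 or any 1 library of the cell group the adjusted p was 0.0546 to 0.106, and in DESeq2 it was 0.0967. Ligation stood at -0.29 against sham (SE 0.341, adjusted p = 0.537) and the cell group at -0.77 against ligation (SE 0.375, adjusted p = 0.230). The antisense gene Gm19719 overlaps 13.3% of its exon bases.

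Ltc4s (ENSMUSG00000020377, chr11:50236461-50238616, minus strand) encodes leukotriene C4 synthase and was the member left out by the filter on low counts. Its libraries held 7, 9 and 13 counts in sham, 4, 2 and 7 in ligation, and 6, 3 and 4 in the cell group, or 1.25, 1.48 and 2.06 CPM, 0.852, 0.289 and 0.875 CPM, and 0.851, 0.416 and 0.576 CPM. All 6 libraries of ligated hearts were below all sham libraries. In a fit with no filter the log2 fold change for ligation against sham was -1.24 (SE 0.618, adjusted p = 0.165, edgeR). For the cell group against sham it was -1.35 (SE 0.614, adjusted p = 0.106), and neither passed. The antisense gene Gm26542 overlaps 26.4% of its exon bases, the largest share among the 10.

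Alox12 (ENSMUSG00000000320, chr11:70241457-70255353, minus strand) encodes arachidonate 12-lipoxygenase, best known from platelets. Its level was 9.08, 12.19 and 10.95 CPM in sham, 10.01, 7.24 and 10.6 CPM in ligation, and 10.4, 8.05 and 9.80 CPM in the cell group. All 3 groups overlapped. The log2 fold changes were -0.21 (SE 0.187, adjusted p = 0.396, edgeR), 0.02 (SE 0.186, adjusted p = 0.970) and -0.20 (SE 0.184, adjusted p = 0.418) in the 3 comparisons. The 5 platelet markers summed to 36.7 to 38.1 CPM in sham, 25.2 to 30.8 CPM in ligation and 14.5 to 16.8 CPM in the cell group. Most of that sum was Pf4, the 1 marker of the 3 tested that passed, which was lower in ligation than in sham and lower again in the cell group. The means of the other 4 (Itga2b, Ppbp, Gp1bb and Gp9) were higher in ligation than in sham, with overlapping ranges, and the median log2 fold change of the 3 tested was 0.51. Their part in the Alox12 values was not tested.

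Levels of different genes were compared per length of exons, taken as all annotated GENCODE exons of a gene merged. In sham, Ptgds had by far the highest level at 477 ± 16.0 CPM per kb (SD, n = 3), followed by Ptgis at 17.7 ± 1.09 and Ptgs1 at 4.07 ± 0.195. Alox12 (2.63 ± 0.384), Alox5 (2.58 ± 0.319) and Alox5ap (2.23 ± 0.634) came next, with means that differed by less than the SD of Alox5ap. Ltc4s (1.58 ± 0.415), Hpgds (1.11 ± 0.136), Ptges (0.820 ± 0.0262) and Ptgs2 (0.441 ± 0.131) were the lowest.
In ligation the first 3 places were the same, with Ptgis at 40.2 ± 1.55 CPM per kb, while Alox5 was at 1.31 ± 0.344 beside Ptgs2 at 1.29 ± 0.170. In the cell group Ptges (2.33 ± 0.692), Alox12 (2.30 ± 0.295) and Ptgs2 (1.94 ± 0.352) followed the first 3, and Hpgds (0.711 ± 0.115), Alox5 (0.677 ± 0.139) and Ltc4s (0.606 ± 0.217) came last, within their SDs of each other. By this measure Ptgs2 stood last of the 10 in sham and in place 6 in the cell group. Without scaling by length Ltc4s had a lower mean than Ptgs2 in sham, 1.60 against 2.02 CPM, so the order of the low genes depends on the length used.

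**Figure D5:**
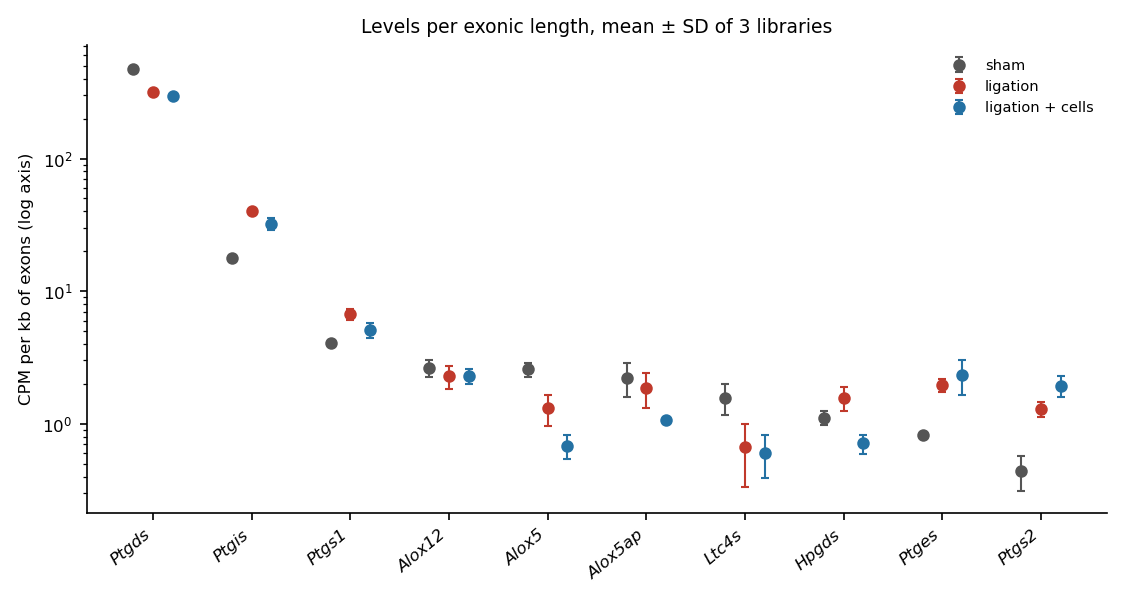
Level of each gene in CPM per kb of exons (log axis), mean and SD of 3 libraries per group, ordered by the sham level. Ptgds, Ptgis and Ptgs1 hold the first 3 places in every group, while Ptgs2 spans group means of 0.441 to 1.94 and Alox5 of 0.677 to 2.58.

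Other genes of the pathway were read from 4 lists with 51 genes, of which 32 were tested. With ligation 7 were higher and 10 lower, where 38.2% of all genes passed. In the cell group against ligation 4 were higher and 4 lower, where 9.87% of all genes passed. Against sham the cell group had 7 higher and 12 lower, where 40.9% of all genes passed. These splits depend on the scaling. With library totals in place of TMM factors they were 12 higher and 8 lower, 1 higher and 5 lower, and 11 higher and 10 lower. The median log2 fold change of the tested pathway genes was 0.09 with ligation, -0.01 for cells against ligation and -0.17 for cells against sham.

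In the list for arachidonate release, 6 of 11 genes were tested, with 1 higher and 3 lower in ligation. Release itself was not measured. Pla2g4a, the cytosolic phospholipase A2, measured 8.01, 7.74 and 6.67 CPM in sham and 14.9, 14.8 and 12.0 CPM in ligation, a rise of 0.88 (SE 0.171, adjusted p = 3.31e-04, edgeR). The related Pla2g4e fell, at -1.87 (SE 0.302, adjusted p = 4.60e-05), from 6.41 to 11.9 CPM in sham to 2.34 to 2.63 CPM in ligation. The monoglyceride lipase gene Mgll, which frees arachidonate from an endocannabinoid, fell with ligation at -0.75 (adjusted p = 2.11e-10) and was 0.17 higher in the cell group than in ligation (adjusted p = 0.0415). The secreted phospholipase gene Pla2g5 was lower in the cell group than in ligation, at -0.42 (adjusted p = 0.0381). Both of these small changes lost the threshold when 1 library was left out: for Mgll any library of the ligated groups or sham replicate 1 (adjusted p 0.0512 to 0.181), and for Pla2g5 ligation replicate 1, ligation replicate 2, cell replicate 1 or cell replicate 3 (0.0824 to 0.178). The Mgll call was also lost with library totals (0.105) and with libraries of a shared header stem summed (0.0841), and the Pla2g5 call in DESeq2 (0.100).

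Among the other prostanoid and lipoxygenase enzymes, 10 of 14 were tested, with 1 higher and 6 lower in ligation, and 3 higher and 2 lower in the cell group against ligation. Mgst3, a microsomal glutathione transferase, had the largest called decrease by ligation of this list, at -0.89 (SE 0.0532, adjusted p = 3.93e-11, edgeR). The 12/15-lipoxygenase gene Alox15 had 0 counts in sham, 28, 57 and 57 in ligation, and 6, 4 and 6 in the cell group, a log2 fold change of -3.22 for cells against ligation (adjusted p = 4.79e-06). Tbxas1, the thromboxane synthase gene, measured 4.81, 5.60 and 5.71 CPM in sham, 6.39, 4.92 and 4.88 CPM in ligation, and 1.84, 2.08 and 2.45 CPM in the cell group. It overlapped between sham and ligation (-0.02, SE 0.241, adjusted p = 0.962) and was lower in the cell group than in ligation, at -1.32 (SE 0.272, adjusted p = 0.00281).
Alox8, the 8-lipoxygenase gene, went the other way, with 10, 9 and 9 counts in sham, 1, 10 and 7 in ligation, and 24, 26 and 16 in the cell group. Its log2 fold change for cells against ligation was 1.76 (SE 0.431, adjusted p = 0.0109), and without ligation replicate 3 the adjusted p was 0.0548. The prostaglandin synthase genes Ptges3 (0.25, adjusted p = 0.0369) and Prxl2b (0.24, adjusted p = 0.0258) were also higher in the cell group than in ligation. Both lost that call when ligation replicate 1, cell replicate 1 or cell replicate 2 was left out, and Ptges3 also without ligation replicate 3 and Prxl2b without ligation replicate 2 (adjusted p 0.0816 to 0.175). The Ptges3 call was also lost with library totals (0.0643) and in DESeq2 (0.0643), and the Prxl2b call with library totals (0.0599).

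Of the genes for prostaglandin breakdown and transport, 10 of 12 were tested, with 3 higher and 1 lower in ligation and 1 lower in the cell group against ligation. Slco2a1, which carries prostaglandins into cells to be broken down, measured 12.5, 12.7 and 13.5 CPM in sham, 26.6, 25.8 and 26.5 CPM in ligation, and 17.2, 18.4 and 20.6 CPM in the cell group. The 3 ranges did not overlap, in the same order of groups as for Ptgs1 and Ptgis. Its log2 fold change was 1.03 with ligation (SE 0.119, adjusted p = 6.55e-07, edgeR) and -0.49 for cells against ligation (SE 0.110, adjusted p = 0.00556). Ptgr2, a prostaglandin reductase gene, rose by 0.36 with ligation (adjusted p = 3.16e-04).

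Of the receptor genes, 6 of 14 were tested, and the 2 that passed with ligation were both higher. Ptger3, a receptor for prostaglandin E2, had 2, 2 and 4 counts in sham, 29, 38 and 42 in ligation, and 29, 41 and 39 in the cell group. All libraries of both ligated groups were above all sham libraries, and the ligated groups overlapped. The log2 fold change was 3.60 with ligation (SE 0.391, adjusted p = 2.78e-07, edgeR) and -0.12 for cells against ligation (SE 0.246, adjusted p = 0.822). Ptgfr, the receptor for prostaglandin F2 alpha, rose by 0.61 with ligation (adjusted p = 0.0189), a call lost in DESeq2 (0.0613) and without sham replicate 1, ligation replicate 1 or ligation replicate 2 (0.0537 to 0.084).

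Other cell types also differed between the groups, as measured by marker genes. Fibroblast markers summed to 1562 to 1603 CPM in sham, 2394 to 2470 CPM in ligation and 2334 to 2406 CPM in the cell group. Ptges, like that sum, was higher in both ligated groups than in sham. Of the 6 fibroblast markers 4 (Col1a1, Dcn, Lum and Postn) were higher with ligation, Pdgfra was lower (log2 fold change -0.20, adjusted p = 0.049, edgeR), and Tcf21 did not pass (0.08, adjusted p = 0.664). Endothelial markers summed to 1785 to 1884, 1271 to 1362 and 1351 to 1391 CPM, and smooth muscle and pericyte markers to 1518 to 1569, 1101 to 1124 and 1119 to 1151 CPM. These are cells of the vessel wall, and the sums of both lists were lower in both ligated groups than in sham. Ptgis was higher in both ligated groups, and so was the fibroblast sum. Of the 6 endothelial markers 5 were lower with ligation. The sixth, Vwf, was higher with ligation (log2 fold change 0.23, adjusted p = 0.00673, edgeR) and lower in the cell group than in ligation (-0.34, adjusted p = 0.0012). Kdr (0.24, adjusted p = 0.00225) and Tek (0.24, adjusted p = 0.0183) were higher in the cell group than in ligation, and the other 3 did not pass. Of the 5 smooth muscle and pericyte markers tested, Acta2, Myh11 and Rgs5, which carries most of the sum, were lower with ligation, while Pdgfrb (0.02, adjusted p = 0.874) and Cnn1 (-0.02, adjusted p = 0.919) did not pass. Mesothelial markers summed to 31.1 to 41.1, 206 to 248 and 175 to 178 CPM, with ligation highest and the cell group between, the order also seen for Ptgs1 and Ptgis. All 5 were higher with ligation, but only Upk3b and Lrrn4 were lower in the cell group than in ligation. Wt1 had its highest mean in the cell group, with 15.3 CPM for sham, 21.3 for ligation and 26.1 for cells. Atrial markers summed to 405 to 449 CPM in sham, 281 to 319 CPM in ligation and 975 to 1022 CPM in the cell group. Ptgs2 was also highest in the cell group, but its difference from ligation did not pass (adjusted p = 0.109, edgeR). With ligation Ptgs2 rose, while the atrial sum fell. Of the 4 atrial markers 3 (Myl7, Sln and Myl4) followed the atrial sum. The other, Bmp10, was higher with ligation, from a mean of 0.108 to 3.96 CPM (adjusted p = 1.51e-06, edgeR), and lower in the cell group, at 0.751 CPM (log2 fold change against ligation -2.39, adjusted p = 4.73e-04). The part of these cells in the results was not tested.

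For the 3 members that passed in both ligation against sham and cells against ligation, the genes with the most similar pattern were found by Pearson's r of log2 CPM over the 9 libraries. For Ptgis they were Map4 (r = 0.989), Cygb (0.988) and Ptk2b (0.988). For Ptgs1 they were Ubxn10 (0.977), Plbd2 (0.976) and Cap1 (0.975). For Alox5 they included Dnajc4 (0.988) and Sost (0.979). Since the 9 libraries fall into 3 groups, these values mostly describe the pattern of group means.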

How the data were processed

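RNA of 9 heart libraries was measured, with TRIzol extraction and a NEBNext Ultra RNA kit per the labels' protocols. The authors deposited raw gene-level read counts that are not normalized, and the build is mm10 per the submitters' processing notes. The aligner, counter and strand setting are not given in the sources used here. Lines that name no gene were left out of library sizes: reads in no gene were 4.14 to 4.91% of counts and ambiguous reads 8.09 to 8.72%. Symbols, positions and exon lengths came from GENCODE on the same build, for 53274 of 53465 gene identifiers.

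Titles gave the groups and the replicate numbers. Genes were filtered with filterByExpr, scaled with TMM factors and fitted in 1 model over all 9 libraries (edgeR 4.0.16 in R 4.3.3; glmQLFit and glmQLFTest; two-sided; Benjamini-Hochberg over 13825 genes; threshold 0.05). The SE is the log2 fold change divided by the root of the F statistic. CPM uses TMM-scaled library sizes. The pipeline was tested on simulated data. Named genes were all members, pathway genes past the threshold in cells against ligation, the 2 largest called changes with ligation per list, and the 3 most similar genes for up to 3 members called in both of these comparisons (r on log2 CPM with a prior count of 2, mean of at least 1 CPM). Members and lists were chosen with earlier results of these data known. Of 51 pathway genes 1, Dpep2, matched more than 1 identifier and was left out. Alternatives were library totals, RLE factors, other filters, DESeq2 1.42.0, fits of the compared groups alone, a replicate block, leaving out each library and summing libraries that share a header stem, the last chosen after seeing the data. Counts of every replicate pair of a group differed by more than sampling noise (mean chi-square per gene 1.96 to 3.88). CPM precision at low counts is limited by counting error only as far as reads are independent molecules. Some results that the rule for named genes or a marker list gave are not reported here.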

Additional observations from a re-analysis of the deposited data

How the results depend on the processing

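All 6 member calls for ligation against sham were kept in every alternative run. For cells against ligation the number of members called was 4, against 2 in DESeq2 and 1 to 4 when 1 library was left out. For cells against sham it was 8, against 5 in DESeq2 and 5 to 8 with 1 library left out. The number of pathway genes called for cells against ligation was 8, and 4 to 8 with 1 library left out: 4 without cell replicate 1, and 5 without ligation replicate 2 or ligation replicate 3. The cause of these differences was not tested. Values near 0 changed sign: Alox12 in cells against ligation was -0.0134 with library totals and -0.145 to 0.153 with 1 library left out, Tbxas1 in ligation against sham was 0.168 with library totals and -0.136 to 0.0412 with 1 library left out, and Ptger3 in cells against ligation was -0.203 to 0.0140 with 1 library left out. Library totals shifted the median log2 fold change of all genes to 0.20 between ligation and sham and to 0.15 between the cell group and sham. The share of called genes that were higher moved with it from 52.7% to 78.7% and from 51.2% to 73.1%, and for cells against ligation from 42.4% to 32.0%. No direction of a member other than Alox12 changed with that scaling.

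Same-numbered libraries deviated from their group means with correlations of -0.12 to 0.14 over 9414 genes, so the numbers were not taken to pair the samples, and not every library correlated best with its own number. Blocking on the replicate number, the calls for ligation against sham were 6 members and 5134 genes (5277 without the block). Cells against ligation had 3 members and 1230 genes (1365 without it), and the cell group against sham had 8 members and 5511 genes (5661 without it). Under the block the calls for cells against ligation were lost for Alox5 (adjusted p 0.0618), Mgll (0.0586) and Ptges3 (0.0518). Summing libraries that share a header stem, chosen after seeing the data, left 6, 3 and 7 members called, and Ptgs1 in cells against ligation then had an adjusted p of 0.0757. Depth limits the precision of genes with few counts: Ltc4s, Alox8 and Alox5ap had 1 to 26 counts per library, and Alox15 and Ptger3 had 0 to 4 in sham.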
